A study of Mus musculus with 18 samples.

Results

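The surrogate light chain genes Igll1, Vpreb1, Vpreb2 and Vpreb3 were followed across 18 end-stage splenic tumours of Eμ-Myc mice. They were the 4 genes of that name group among 19938 genes that had a symbol on the array, and each was read by 1 probe set that carried no other symbol. The tumours came from 9 Prdm11 KO mice that carried the Eμ-Myc transgene and 9 Prdm11 WT mice that carried the same transgene, on a C57BL/6 background per the labels. In these mice the enhancer of the immunoglobulin heavy chain locus drives Myc in the B lineage, so the WT tumours are lymphomas too and no Myc-free tissue was compared. Prdm11 is one of the PR domain genes, a family that includes regulators of transcription. The sources used here give neither the ages of the mice nor the part of Prdm11 that was deleted. Each tumour came from a different mouse. The tumours were frozen, homogenised and not sorted, so that in these bulk samples fewer cells of a type and less RNA per cell cannot be told apart.

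A developing B cell that has made an immunoglobulin heavy chain has no light chain to pair it with. At that stage the heavy chain is carried to the surface by a stand-in, the surrogate light chain, made of a VpreB protein (Vpreb1 or its near copy Vpreb2) and λ5 (Igll1). With the signalling partners Cd79a and Cd79b this forms the pre-B cell receptor, which tells the cell that the heavy chain works, sets off a burst of division and then leads to its own shut-down as light chain genes rearrange. Vpreb3 encodes a related immunoglobulin-like protein that associates with immunoglobulin chains inside B lineage cells.

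Igll1, Vpreb1 and Vpreb2 lie on chromosome 16 and Vpreb3 lies on chromosome 10 in the RefSeq gene table of GRCm38.p6. The levels of Igll1 and Vpreb1 moved together across the tumours, while Vpreb3 was less closely tied to them. For this reason the 250 bases before the RefSeq start of 3 of the genes are shown. They come from RefSeq on GRCm38.p6, at chr16:16863986-16864235 on the minus strand for Igll1, chr16:16869256-16869505 on the minus strand for Vpreb1 and chr10:75948050-75948299 on the plus strand for Vpreb3. Capitals mark each E-box (CANNTG, the core of sites bound by E2A and its relatives) and, in Vpreb3, the octamer ATTTGCAT (the core of sites bound by Oct factors).
Igll1: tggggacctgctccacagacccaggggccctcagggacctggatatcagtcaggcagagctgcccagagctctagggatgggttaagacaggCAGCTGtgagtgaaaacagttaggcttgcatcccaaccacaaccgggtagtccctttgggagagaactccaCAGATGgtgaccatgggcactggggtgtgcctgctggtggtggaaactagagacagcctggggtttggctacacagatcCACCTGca
Vpreb1: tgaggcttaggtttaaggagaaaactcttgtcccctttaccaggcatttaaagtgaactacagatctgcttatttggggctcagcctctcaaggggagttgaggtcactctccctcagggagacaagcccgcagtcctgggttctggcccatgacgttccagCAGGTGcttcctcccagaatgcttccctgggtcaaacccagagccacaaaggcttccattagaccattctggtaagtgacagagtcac
Vpreb3: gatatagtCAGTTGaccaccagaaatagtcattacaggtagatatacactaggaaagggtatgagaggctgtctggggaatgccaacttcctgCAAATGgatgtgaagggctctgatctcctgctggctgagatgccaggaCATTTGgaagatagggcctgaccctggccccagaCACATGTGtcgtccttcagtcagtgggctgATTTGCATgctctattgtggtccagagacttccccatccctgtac
The Igll1 window held 3 E-boxes, the Vpreb1 window 1 and the Vpreb3 window 5, of which 2 overlapped each other, and the Vpreb2 window held 2. Over 32841 RefSeq windows of the same length, 66.2% held at least 1 E-box and 12.2% held 3 or more, both strands counted. The Igll1 window also held 1 match to the EBF core CCCNNGGG, at positions -231 to -224 from the start, a match that 11.8% of the windows share. TGGGAA, the Ikaros core, was found once in the Vpreb2 window, where it overlapped an E-box, and in 21.6% of windows. The octamer, a motif searched after the sequences had been seen, stood at positions -45 to -38 from the Vpreb3 start, and 1.6% of windows held it. These matches describe letters only.

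Vpreb1 and Vpreb2 shared more than a name. A stretch of 106 bases ends at the Vpreb1 start, at chr16:16869256-16869361 on the minus strand. It has a counterpart at positions -250 to -145 from the Vpreb2 start, at chr16:17980315-17980420 on the plus strand. The counterpart begins at the edge of the Vpreb2 window. Both are shown to make plain how alike the pair is over these bases. Capitals mark the 2 bases that differ.
Vpreb1: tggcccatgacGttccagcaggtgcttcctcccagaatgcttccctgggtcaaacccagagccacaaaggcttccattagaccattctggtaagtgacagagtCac
Vpreb2: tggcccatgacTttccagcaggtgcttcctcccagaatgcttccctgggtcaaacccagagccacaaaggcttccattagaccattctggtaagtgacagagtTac
Counted from the 5′ end of the stretch, with the Vpreb1 base first, the substitutions were G12T and C104T, so that 98.1% of the bases were identical. These bases lie before both starts, so they do not show how alike the transcripts are. The extent to which the Vpreb1 and Vpreb2 probe sets read each other's transcripts was not tested. Their values are uncertain to that extent. The readings of the 2 probe sets differed in range and in level, as described next.

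Levels are log2 RMA intensities, where a difference of 1 is a doubling, and each difference is KO minus WT. Array medians ran from 5.14 to 5.38, with the array of WT tumour 3 furthest from the rest (median r of 0.924 with the other arrays, against at least 0.957 elsewhere). The Prdm11 probe set read 4.87 to 5.49 in KO tumours, with a median of 5.21, against 4.84 to 5.66 in WT tumours, with a median of 5.33. The groups overlapped on it (difference of -0.12, two-sided exact permutation p = 0.311), so this probe set does not check the genotype labels, and whether it lies in the deleted part is not known here. The 6 measured genes of the B lineage list averaged 7.21 to 8.33 in KO tumours, against 6.75 to 8.12 in WT tumours. They were Cd79a, Cd79b, Pax5, Ebf1, Blnk and Ptprc, and Ptprc is not confined to B cells. WT tumour 8 stood apart. It had the lowest level of all 18 tumours for Cd79a (3.69, against 5.67 to 6.88 elsewhere) and Ebf1 (4.25, against 5.93 to 8.45), and the highest for Cd7 (9.69, against 4.75 to 6.92). Its Cd79b level of 9.19 and its Ptprc level of 9.76 lay within the range of the others. Several results that rest on it are given with and without it, while the counts of genes in the lists include it.

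Igll1, which encodes λ5, covered a wide range. In KO tumours it ran from 5.58 in tumour 6 to 10.66 in tumour 8 with a median of 8.04, against 5.65 to 7.84 with a median of 6.72 in WT tumours. The top 5 KO tumours lay above every WT tumour and the lowest KO tumour lay below every WT tumour, so that the KO group spread both further up and slightly further down. The means were 7.92 ± 1.78 in KO tumours and 6.86 ± 0.72 in WT tumours (SD, n = 9 each). The difference of 1.06 (SE 0.57, 95% interval -0.14 to 2.25) did not pass limma's test across all genes (adjusted p = 0.772), and the two-sided exact permutation p was 0.119. Without KO tumour 8 it was 0.71.

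Vpreb1, a VpreB gene, had the widest spread of the 4. It ran from 6.58 to 12.19 in KO tumours with a median of 10.80, and from 6.26 to 11.30 in WT tumours with a median of 9.09. Of the KO tumours, 4 lay above every WT tumour (tumours 1, 2, 4 and 8), and the other 5 overlapped with the WT group, whose highest was tumour 1 and lowest tumour 8. Means were 10.01 ± 2.14 in KO tumours and 9.06 ± 1.42 in WT tumours (SD, n = 9 each). The difference of 0.95 (SE 0.76, interval -0.64 to 2.54) did not pass limma's test (adjusted p = 0.835), with an exact permutation p of 0.28, and it was 0.60 without WT tumour 8.

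Vpreb2 had a narrower range and a lower mean level than the other members. Among all genes its mean lay at percentile 69.3 and its SD at percentile 82.7. Its mean over 18 tumours was 6.15, against 5.39 for the median gene and 9.54 for Vpreb1. The part of the lower level in the narrower range was not tested. Vpreb2 read 5.81 to 7.29 in KO tumours with a median of 6.03, and 5.57 to 6.73 in WT tumours with a median of 6.08. KO tumours 8 and 4 lay above every WT tumour. The means were 6.24 ± 0.47 in KO tumours and 6.06 ± 0.34 in WT tumours, while the medians were in the opposite order. The difference was 0.18 (SE 0.18, interval -0.20 to 0.56, limma adjusted p = 0.871, exact permutation p = 0.377), and 0.05 without KO tumour 8.

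Vpreb3, the related immunoglobulin-like gene, read 8.13 to 10.01 in KO tumours with a median of 9.56, against 6.18 to 9.65 with a median of 8.87 in WT tumours. Of the KO tumours, 8 lay above the WT median and 3 above every WT tumour, while WT tumours 3, 4 and 8 lay below every KO tumour. The means were 9.41 ± 0.57 in KO tumours and 8.56 ± 1.05 in WT tumours (SD, n = 9 each). The difference of 0.84 (SE 0.36, interval 0.10 to 1.59) had an exact permutation p of 0.0375 on its own but an adjusted p of 0.717 in limma's fit over all genes. Without WT tumour 8 it was 0.55. Limma's unadjusted p of 0.0289 became 0.0461 without that tumour, and passed 0.05 without KO tumour 1 (0.051), KO tumour 4 (0.0538), WT tumour 3 (0.056) or WT tumour 4 (0.0501), and without both WT tumour 3 and KO tumour 4 (0.0957).

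**Figure D1:**
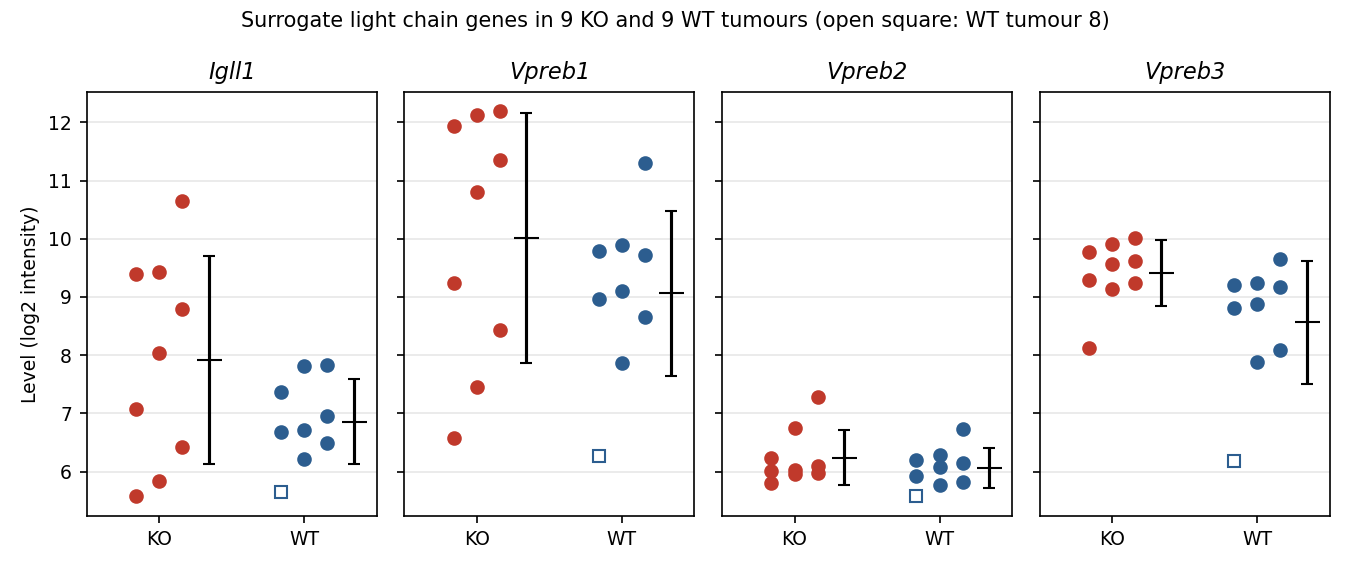
Level of each gene (log2 intensity) in 9 KO tumours, left, and 9 WT tumours, right; each point is 1 tumour, the lines beside the points are the mean and SD over 9 tumours, and WT tumour 8 is an open square. Igll1 and Vpreb1 covered 5.07 and 5.93 log2 units over the 18 tumours, Vpreb2 covered 1.71, and WT tumour 8 at 6.18 was the lowest for Vpreb3.

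None of the 4 genes passed limma's adjusted threshold of 0.05, which 0.00502% of all genes passed (1 of 19938, Cd59a, which was lower in KO tumours and is named after its values were seen). At an unadjusted p below 0.05, Vpreb3 was called higher in KO tumours, beside 2.83% of all genes, and 0 of the 4 were called lower, beside 3.87% of all genes. All 4 mean differences were positive, while the median over all genes was -0.03, with 8139 positive and 11799 negative. The 4 genes are not independent of each other, as the correlations below show. A further limma fit took the mean level of the pan-B list as a covariate. That list holds B lineage receptor and signalling genes and the transcription factors Pax5, Ebf1 and Ikzf3. With this covariate the difference became 1.60 for Igll1 (unadjusted p = 0.00914) and 1.49 for Vpreb1. Their adjusted p stayed above the threshold at 0.833 and 0.941. In the same fit Vpreb2 had 0.36 (unadjusted p = 0.0542), and Vpreb3 had 0.66 (unadjusted p = 0.102), so that the unadjusted call of Vpreb3 was lost.

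The spread between single tumours was wide. Across the 18 tumours the SD of Vpreb1 was 1.83, which ranked 3 of 19938 genes, and that of Igll1 was 1.43, rank 21. From the lowest to the highest tumour Vpreb1 changed 60.9-fold and Igll1 33.7-fold. Vpreb3 had an SD of 0.93 (rank 183, a 14.2-fold range) and Vpreb2 one of 0.41 (rank 3446, a 3.28-fold range), against 0.26 for the median gene. Ranked by level, the largest gap between neighbouring tumours with at least 3 tumours on each side was 0.91, for Vpreb1. At the ends, KO tumour 8 lay 1.23 above the next tumour for Igll1, and WT tumour 8 lay 1.70 below the next for Vpreb3.

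Igll1 and Vpreb1 rose and fell together. Over 18 tumours Pearson's r was 0.94 and Spearman's rho 0.99, with a permutation p of 1e-05, the smallest that 100000 resamples can give (6e-05 after adjustment over the 6 pairs of genes). In the KO tumours alone r was 0.97 and the 9 tumours stood in the same order for both genes (exact permutation p = 8.27e-06), and in the WT tumours alone r was 0.93 (exact permutation p = 0.000105). Without the tumours farthest from the Igll1 median, KO tumours 8 and 4, r was 0.95. No other gene among all those measured had a higher r to Igll1 than Vpreb1. Both genes were high in KO tumours 8, 4, 1 and 2 and low in KO tumours 6 and 7 and WT tumours 4 and 8.

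**Figure D2:**
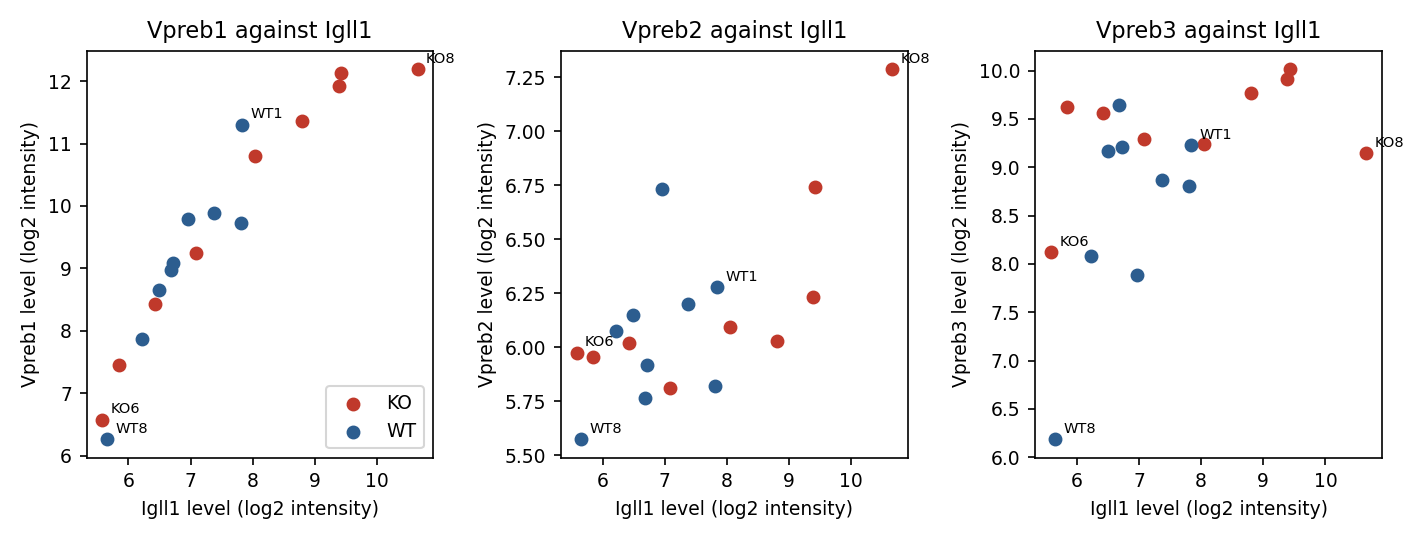
Levels of Vpreb1, Vpreb2 and Vpreb3 against the level of Igll1 (log2 intensity on both axes); each point is 1 tumour, red for KO and blue for WT. The tumours lie along a single band for Vpreb1 (r of 0.94), while for Vpreb2 (0.69) KO tumour 8 lies apart and for Vpreb3 (0.50) WT tumour 8 lies far below the rest.

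The other pairs were looser. Igll1 and Vpreb2 had r = 0.69 and rho = 0.61 (permutation p = 0.00175, adjusted 0.00524, with 0.00901 and 0.018 for rho), with r = 0.79 in KO tumours and 0.38 in WT tumours. Without KO tumours 8 and 4 r was 0.33 (permutation p = 0.215), so that this relation rests on those tumours. Vpreb1 and Vpreb2 had r = 0.65 and rho = 0.70 (permutation p = 0.00262, adjusted 0.00524, with 0.00173 and 0.00519 for rho), with r = 0.65 in KO tumours, 0.59 in WT tumours and 0.60 without WT tumour 8 and KO tumour 6.

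Vpreb3 was loosely tied to the others. Its r to Vpreb1 was 0.61 with rho at 0.43 (permutation p = 0.00503, adjusted 0.00754, with 0.0781 and 0.0937 for rho), and r was 0.33 (permutation p = 0.215) without WT tumour 8 and KO tumour 6, so that it rests on those tumours. With Igll1 r was 0.50 and rho 0.45 (permutation p = 0.034, adjusted 0.0408, with 0.0642 and 0.0937 for rho), and r was 0.45 in KO tumours, 0.60 in WT tumours and 0.43 without WT tumour 8. KO tumour 8 had the highest Igll1 of all 18 tumours and the second lowest Vpreb3 of the KO group, at 9.14. With Vpreb2 r was 0.22 (rho 0.09, permutation p = 0.359).

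Genes that followed each gene were taken by Pearson's r over the 18 tumours among genes brighter than the median gene, 10 at the high end and 5 at the low end. They were chosen by r, so their values are a description without a test. For Vpreb1 the closest were Map7 (r of 0.87), which encodes a microtubule-associated protein, Smim41 (0.86), Arhgap10 (0.82), a GTPase-activating protein, Hmgb3 (0.81), a chromatin protein of the HMG box family, and Myb (0.80), a transcription factor needed in early B cell development. Kcnk10, Erg, Zfp428, Wdr60 and Zbed3 followed at 0.76 to 0.78. Erg is an ETS transcription factor of blood progenitors. All 10 had a positive r within each genotype, from 0.75 to 0.94 in KO tumours and from 0.38 to 0.88 in WT tumours, and without WT tumour 8 they stayed at 0.69 to 0.84.

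Myb illustrates the followers of Vpreb1. It read 6.95 to 8.52 in KO tumours, against 6.28 to 8.70 in WT tumours, where WT tumour 1 was highest and WT tumour 8 lowest. Its difference between genotypes was 0.49 (SE 0.25, limma adjusted p = 0.769).

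The genes most opposed to Vpreb1 were Btla (-0.89), an inhibitory receptor of mature lymphocytes, Tlr1 (-0.89), a Toll-like receptor, H2-DMa (-0.87), which loads peptides onto MHC class II, Ptpn6 (-0.87), the phosphatase SHP-1 that dampens antigen receptor signals, and Rnase6 (-0.86). In KO tumours these 5 lay between -0.92 and -0.86 and in WT tumours between -0.94 and -0.84. Tlr1 ranged from 5.43 to 9.47 over the 18 tumours and Btla from 4.60 to 7.94, with Btla highest in KO tumour 6, where Vpreb1 was the lowest of the KO group.

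Igll1 shared 5 of its 10 closest genes with Vpreb1 (50% of each list), namely Map7, Smim41, Arhgap10, Wdr60 and Kcnk10. The other 5 were Ada (0.81), the adenosine deaminase that protects lymphoid cells from deoxyadenosine, Stc2 (0.80), Znrf1 (0.76), Dyrk2 (0.75) and Gas8 (0.74). Within the WT tumours several of these were looser than within the KO tumours: Stc2 had r = 0.88 in KO tumours and -0.13 in WT tumours, and Ada 0.88 in KO tumours and 0.30 in WT tumours. The difference between the genotypes in these values was not tested. At the other end were Sla (-0.86), an adaptor that lowers antigen receptor levels, Ceacam1 (-0.86), Ly86 (-0.85), Sp100 (-0.85) and Gpr137b (-0.85).

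Vpreb3 had a list of closest genes that differed from those of Vpreb1 and Igll1. Its closest genes were Akap12 (0.86), a kinase scaffold, Ebf1 (0.83), a transcription factor that sets the B lineage program, Pou2af1 (0.83), the coactivator that binds Oct factors on octamer sites, Cd79a (0.81), the signalling partner of the pre-B and B cell receptors, and Lig4 (0.81), the DNA ligase that joins V(D)J ends. Nr1d1, Myb, Lrmp, Nfyb and Jade1 followed at 0.76 to 0.78. WT tumour 8 carried part of this: without it r was 0.67 for Ebf1, 0.62 for Pou2af1, 0.50 for Cd79a and 0.57 for Lig4, while Akap12 had 0.80, Nfyb 0.85 and Jade1 0.88. Within the KO tumours Cd79a had r = 0.06, against 0.92 in WT tumours, WT tumour 8 included. That tumour was the lowest of all for both genes, at 3.69 for Cd79a and 6.18 for Vpreb3. The r within the WT tumours without it was not tested. Of the 10 genes, Myb was the one also among the closest to Vpreb1 (10% of each list), and 0 were shared with Igll1. The cut of the lists hides weaker ties. Nr1d1 (0.65), Nfyb (0.64), Akap12 (0.63), Lig4 (0.62) and Ebf1 (0.55) also had an r above 0.5 to Vpreb1. Jade1 (0.49), Lrmp (0.46), Pou2af1 (0.34) and Cd79a (0.23) had less. For Cd79a the sign was not stable: to Vpreb1 its rho was -0.15, and its r was -0.31 without WT tumour 8. Within the KO tumours that r was -0.62, against 0.63 within the WT tumours.

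Jaml (-0.89), AF067061 (-0.87), Tmem154 (-0.86), Pdia5 (-0.85) and Cd7 (-0.83) ran most against Vpreb3. To Vpreb1 the same genes had an r from -0.71 (AF067061) to -0.51 (Pdia5). Cd7 encodes a surface protein of T and NK cells, and Jaml a junctional adhesion molecule of leukocytes. Cd7 had a rho of -0.43 and an r of -0.56 without WT tumour 8, where it was the highest of all tumours.

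The genes closest to Vpreb2 were Il20rb (0.88), Gli1 (0.84), N4bp3 (0.83) and Mir669c (0.82), and its most opposed were AB124611 (-0.91), Cst3 (-0.90) and Tmem80 (-0.88). It shared 0 of its 10 closest with any other member. Of the 19934 other genes, 12.9% had an r of 0.5 or more to Vpreb2, against 2.46% for Igll1, 2.67% for Vpreb1 and 3.01% for Vpreb3. The array median moved with Vpreb2 as well (r of 0.43, against -0.17 for Igll1, -0.08 for Vpreb1 and -0.06 for Vpreb3), and the 4 tumours highest for Vpreb2 (KO tumours 8 and 4, WT tumours 3 and 1) were those whose arrays were least like the rest, with a median r to the other arrays of 0.962, 0.957, 0.924 and 0.959. The part of either in these correlations was not tested.

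**Figure D3:**
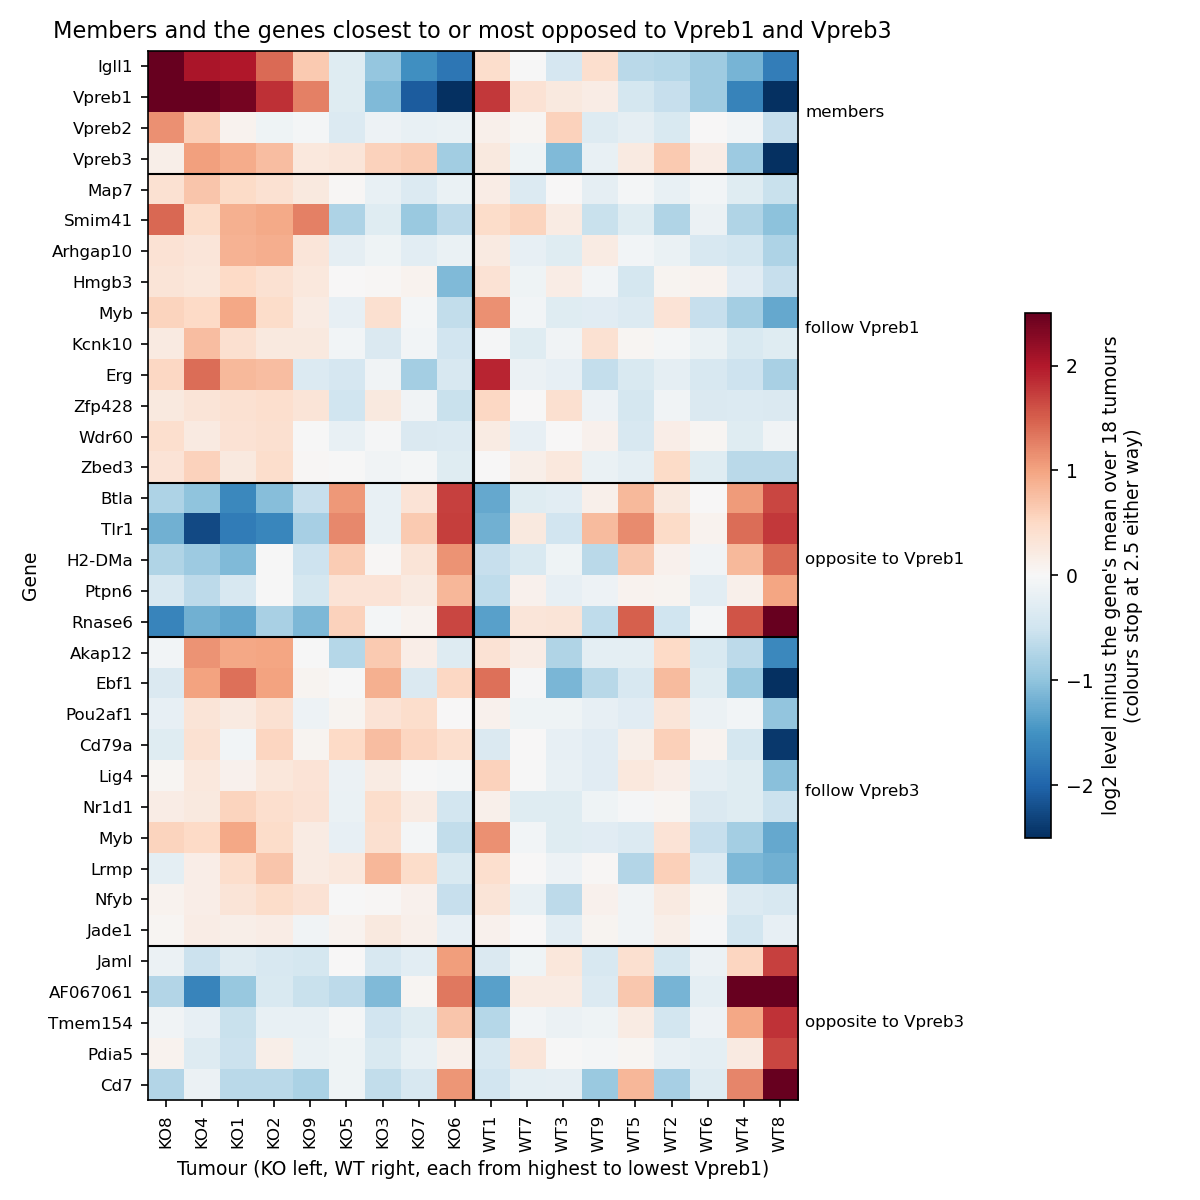
Levels in each tumour minus the gene's mean over 18 tumours (log2, colours stop at 2.5 either way) for the 4 genes and the genes closest to or most opposed to Vpreb1 and Vpreb3; KO tumours stand left and WT tumours right, each from highest to lowest Vpreb1. Vpreb1 runs from 12.19 in KO tumour 8 to 6.58 in KO tumour 6, and from 11.30 in WT tumour 1 to 6.26 in WT tumour 8, with Btla and Tlr1 (r of -0.89 each) running the other way.

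The pathway around the surrogate light chain was read from 4 gene lists. Of 16 measured pre-B receptor partners and signalling genes (of 19 listed), 12 had a positive difference and 5 were called higher in KO tumours at an unadjusted p below 0.05, beside 2.83% of all genes. They were the signalling enzyme Plcg2 (0.46, SE 0.15), the PI3K adaptor Pik3ap1 (0.42, SE 0.16), Cd79a (0.64, SE 0.28), the kinase Btk (0.38, SE 0.17) and the adaptor Blnk (0.48, SE 0.22). None was called lower, and none of the genes of any list passed limma's adjusted threshold. The list's median difference was 0.17, against -0.03 for all genes. Across tumours the 16 genes had a median r of -0.15 to Igll1 and -0.24 to Vpreb1, with 0 at 0.5 or more to Vpreb1, beside 2.67% of all other genes, and 4 at -0.5 or less, beside 4.68%. Ighm, the heavy chain that the surrogate light chain pairs with, had r = -0.36 to Vpreb1 and read 5.53 ± 0.47 in KO tumours and 5.65 ± 0.41 in WT tumours (SD, n = 9 each). Cd79b had r = -0.55, with -0.77 in KO tumours and -0.13 in WT tumours.

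Transcription factors known to act on B lineage genes split. Of 18 measured, 14 had a positive difference, with a median of 0.31, and 4 were called higher at an unadjusted p below 0.05, beside 2.83% of all genes: Ikzf3 (0.57, SE 0.21), Pax5 (0.57, SE 0.23), Ebf1 (0.92, SE 0.41) and Bach2 (0.36, SE 0.16). Again 0 were called lower. To Vpreb1, 5 of the 18 had an r of 0.5 or more, beside 2.67% of all other genes, and 3 an r of -0.5 or less, beside 4.68%. The 5 were Myb (0.80), Tcf3 (0.75), which encodes E2A, Sox4 (0.73), Lef1 (0.62) and Ebf1 (0.55), and the 3 were Spib (-0.58), Ikzf2 (-0.57) and Irf8 (-0.52), all named after their values had been seen. Pax5, Ikzf1 and Foxo1 lay at 0.25, -0.07 and -0.01. Without WT tumour 8, Ebf1 had 0.38 to Vpreb1. Vpreb3 had 6 of the 18 at 0.5 or more, beside 3.01% of all other genes. These included Pax5 at 0.50, which had 0.38 without that tumour.

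Several other genes of the pro-B and pre-B stages ran with Igll1 and Vpreb1. Of 19 measured, 9 had an r of 0.5 or more to Vpreb1, beside 2.67% of all other genes, and 6 to Igll1, beside 2.46%, with medians of 0.45 and 0.37, against 0.03 and 0.01 for all genes. Erg (0.77), Arpp21 (0.71), Dntt (0.68), which encodes the terminal transferase of heavy chain joining, and Bst1 (0.65) were highest to Vpreb1. Dntt lay above the median gene (5.39) only in KO tumours 1, 4 and 8 and WT tumour 1. Arpp21 did so only in KO tumours 2, 4 and 8 and WT tumour 1. In KO tumour 2 Dntt read 3.89, although Vpreb1 read 11.35. The r of these 2 genes without the tumours named was not tested. Their rho to Vpreb1 was 0.62 for Dntt and 0.60 for Arpp21. Il7r, the receptor of the cytokine that early B cells grow on, had r = 0.09 to Vpreb1, and Flt3 and Ly6d had -0.57 and -0.62. Of the 19, 13 had a positive difference and 2 were called higher in KO tumours at an unadjusted p below 0.05, beside 2.83% of all genes. These were Akap12 (0.63, SE 0.28) and Enpep (1.48, SE 0.36), the aminopeptidase BP-1 of pre-B cells. Enpep averaged 6.01 ± 1.19 in KO tumours and 4.53 ± 0.21 in WT tumours, and had r = 0.72 to Igll1 and 0.61 to Vpreb1, with 0.70 to Igll1 in KO tumours and 0.58 in WT tumours. In every WT tumour Enpep lay below the median gene (5.39), from 4.29 to 4.95, as it did in some KO tumours. The part of these low levels in its r within the WT tumours was not tested.

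Genes of later maturation ran the other way. Of 14 measured (of 20 listed, with the immunoglobulin light chain genes among those not analysed here), 12 had a negative r to Vpreb1, beside 45.4% of all other genes, and 7 an r of -0.5 or less, beside 4.68%, with a median of -0.51, or -0.63 without WT tumour 8. H2-Aa (-0.83), Cd74 (-0.82), which chaperones MHC class II, and Ms4a1 (-0.73), which encodes CD20, were the most opposed. The median to Vpreb1 was -0.68 within the KO tumours and -0.29 within the WT tumours. To Vpreb3 the median was -0.36, or -0.47 without WT tumour 8, with -0.67 within the KO tumours and -0.13 within the WT tumours. To Vpreb2 it was -0.17, or -0.30 without WT tumour 8, with -0.34 within the KO tumours and 0.03 within the WT tumours. Between the genotypes 6 were positive and 8 negative with a median difference of -0.03, and Tnfrsf13c (0.37, SE 0.14) was the 1 gene called higher at an unadjusted p below 0.05, beside 2.83% of all genes. Ms4a1 read 8.27 ± 1.67 in KO tumours and 9.07 ± 1.67 in WT tumours, a difference of -0.80 (SE 0.70) that passed no test.

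Markers of other cells moved with these relations. All 8 measured T cell markers had a negative r to Vpreb1 (median of -0.63, beside 45.4% of all other genes below 0) and to Vpreb3 (median of -0.63, beside 51.9%). Their mean level ran from 5.26 to 7.62 in KO tumours, against 5.38 to 7.66 in WT tumours, and it was highest in WT tumours 8, 4 and 5 and KO tumour 6. It had an r of -0.74 to Vpreb1, -0.61 to Igll1 and -0.71 to Vpreb3, or -0.66, -0.56 and -0.58 without WT tumour 8. All 8 macrophage markers also had a negative r to Vpreb1 (median of -0.39), while the 7 erythroid and 8 neutrophil markers had medians of -0.02 and 0.00. The 5 plasma cell markers had a median of -0.46. Within the genotypes the macrophage median to Vpreb1 was -0.68 in KO tumours and -0.08 in WT tumours. The plasma cell median was -0.49 in KO tumours and 0.07 in WT tumours. That of the T cell markers was -0.66 in KO tumours and -0.74 in WT tumours. Macrophage markers ran from 6.38 to 7.18 in KO tumours and from 6.60 to 7.53 in WT tumours on average. The part of these cells in the correlations was not tested. Between the genotypes the list means differed by -0.56 for erythroid, -0.34 for T cell, -0.27 for neutrophil, -0.24 for macrophage, -0.12 for plasma cell and 0.30 for pan-B genes. Of the 7 measured erythroid genes, 4 were called lower in KO tumours at an unadjusted p below 0.05, beside 3.87% of all genes, among them the erythroid transcription factor Klf1 (-0.68, SE 0.21) and Rhd (-0.81, SE 0.26). Of the 12 measured pan-B genes, 7 were called higher, beside 2.83% of all genes. All 7 (Cd79a, Pax5, Ebf1, Blnk, Btk, Plcg2 and Ikzf3) were already counted above among the pre-B receptor partners or the transcription factors. The lists overlap, so these counts are not separate results. The part of these differences in those of the surrogate light chain genes was not tested, apart from the pan-B covariate given above.

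**Figure D4:**
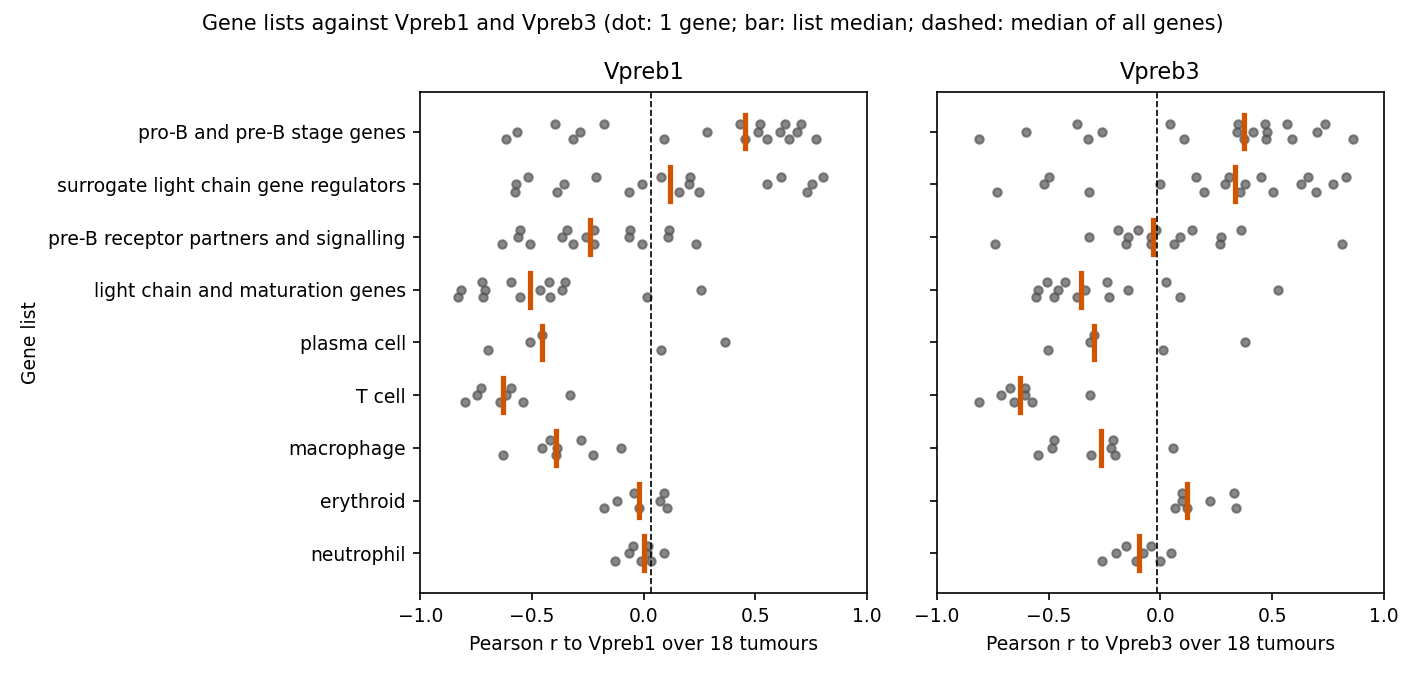
Pearson's r over 18 tumours of each measured gene of 9 lists to Vpreb1, left, and Vpreb3, right; dots are genes, orange bars list medians and the dashed line the median of all genes. The pro-B and pre-B stage genes have a median r of 0.45 to Vpreb1, the light chain and maturation genes -0.51, and the T cell markers -0.63.

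Position on the chromosome was compared last, by the order of measured genes in the RefSeq table of GRCm38.p6. Igll1 and Vpreb1 are neighbours with no measured gene between them. Beyond Vpreb1 lie Top3b, which encodes a topoisomerase and had r = 0.51 to Igll1 and 0.40 to Vpreb1, then Ppm1f (0.29 to Igll1) and Ypel1 (0.54 to Igll1), while Spag6l on the other side of Igll1 had 0.32. Top3b averaged 6.17 ± 0.22 in KO tumours and 5.75 ± 0.30 in WT tumours, a difference of 0.42 (SE 0.12) with a limma adjusted p of 0.664. Its r to Igll1 was 0.61 in KO tumours and 0.14 in WT tumours.

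The direct neighbours of Vpreb2, Slc25a1 and Dgcr6, had r = 0.37 and 0.36 to it. For Vpreb3, the direct neighbours Gm867 and Gm5134 had -0.27 and -0.22. Chchd10, which lies beyond Gm867, had r = 0.76, which ranked 13 among all genes, but a rho of 0.29 and an r of 0.46 without WT tumour 8. It encodes a mitochondrial protein and read 7.30 ± 0.31 in KO tumours and 7.19 ± 0.43 in WT tumours.

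**Figure D5:**
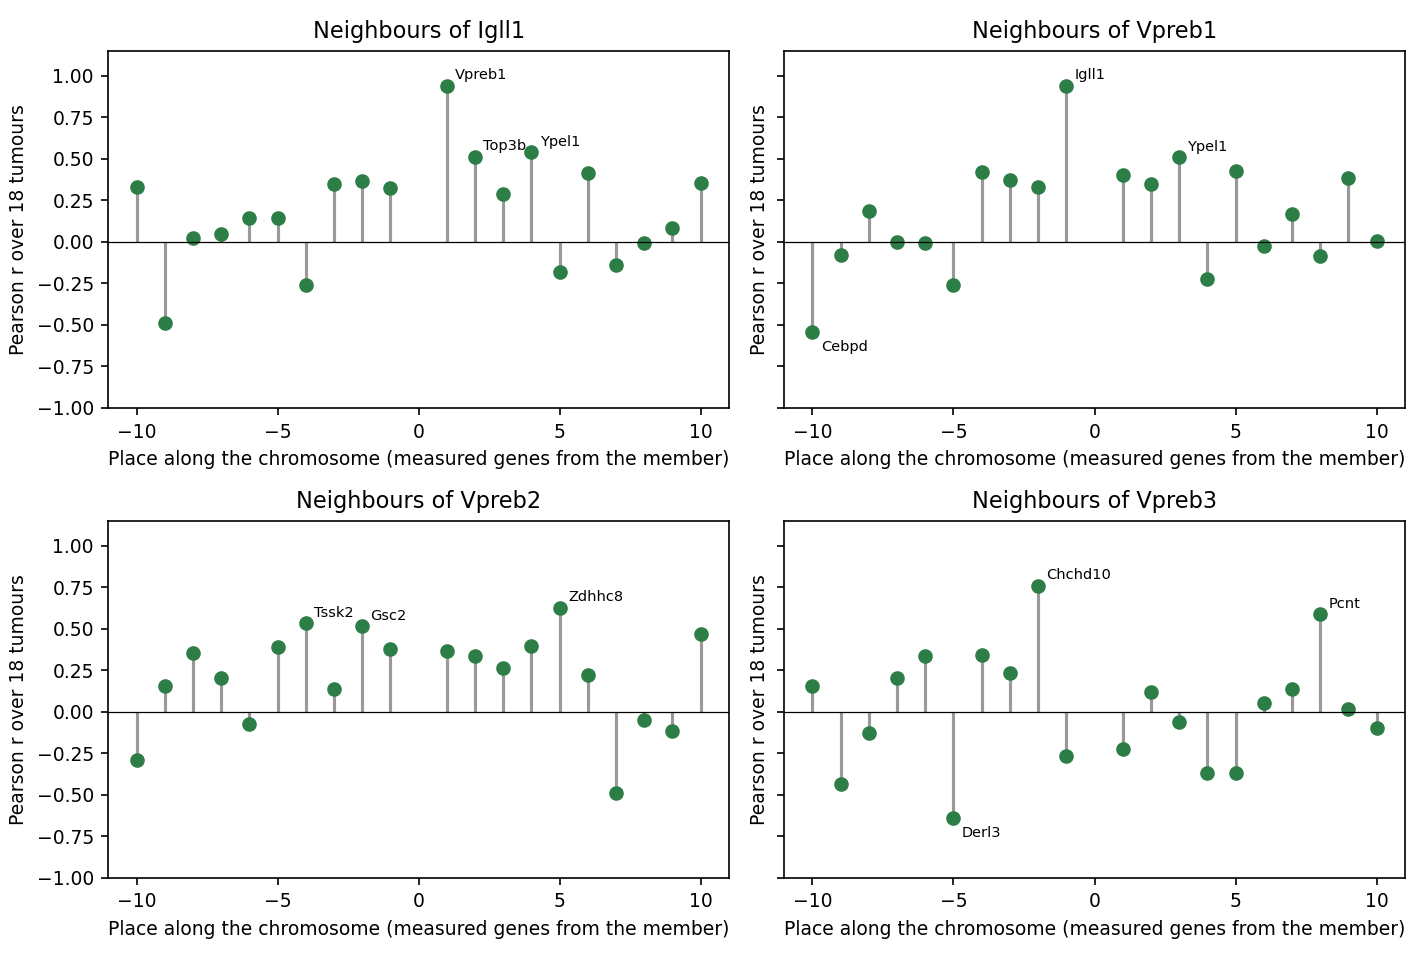
Pearson's r over 18 tumours between each surrogate light chain gene and the 10 measured genes on each side of it along the chromosome, where available; the horizontal axis is the place in gene order. Vpreb1 and Igll1 stand out as direct neighbours at 0.94, and Chchd10 reaches 0.76 beside Vpreb3.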

How the data were processed

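RNA of each of 18 end-stage splenic tumours was read on its own Affymetrix array. The authors deposited linear probe set intensities and, per the submitters' processing notes, used RMA. The sources used here do not give its version. The intensities ran from 1.63 to 14996 and were turned to log2 with no pseudocount. RMA usually brings arrays to a common distribution, so a shift shared by most genes may not show. The precision is limited by the number of arrays. Of 153 array pairs, 0 were identical, and 0 columns were left unused.

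Of 35556 probe sets, 21789 had 1 symbol in the platform annotation, 1621 had several and 12146 had none. Those with 1 symbol gave 19938 genes, each read by its probe set of highest mean over 18 arrays. No dim genes were removed. Gene identifiers of 21698 probe sets matched the RefSeq table of GRCm38.p6.

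KO and WT tumours were compared with limma 3.58.1 in R 4.3.3 (lmFit, eBayes, no covariate), with Benjamini-Hochberg adjustment over all genes. Exact permutation tests of the differences ran over 48620 splits, with 4.11e-05 the smallest p possible, and were two-sided. Correlations within a genotype were tested by exact permutation, others with 100000 resamples. The limma fit was also tested on simulated data. Correlations, levels and figures came from Python 3.11.15 with scipy 1.17.1, numpy 2.4.6, matplotlib 3.10.9 and pandas 2.3.3.

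The genes, the lists and the tests were chosen with earlier results of these data known. Named genes were the 4 genes, for each the 10 with the highest and 5 with the lowest r among genes above the median gene (unannotated clones left out), up to 4 per list by smallest unadjusted p, and up to 3 measured neighbours on each side. Other names, such as Cd79b, Ighm, Blnk, Tcf3, H2-Aa and Il7r in the lists and Ypel1 beside Igll1, were chosen after their values were seen. Some list genes, Lyn, Trac and Lck among them, were not analysed here.

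The deviations of same-numbered KO and WT tumours had r from -0.23 to 0.49, and above 0.1 in 4 of 9 pairs. Differently numbered pairs were not compared, so this does not settle whether the numbers carry a pairing or a batch. The main fit used them as names only. Alternatives covered the replicate number as a block, the probe set choice, scaling, leaving out dim genes, the variance model, a pan-B covariate and left-out tumours.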

Additional observations from a re-analysis of the deposited data

Results flagged for a closer look

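Each of 30 sets of 9 tumours (4 genes and 11 list means in each genotype) was searched for a tumour at the end whose gap to the nearest other was, as a share of the whole range, above Dixon's critical value, which chance passes in about 1 in 20 sets. This held for 3 sets. Vpreb3 was lowest in KO tumour 6, at 8.13, with the next KO tumour at 9.14 (a ratio of 0.539). The mean of the T cell markers was highest in the same tumour, at 7.62, with the next KO tumour at 6.28 (0.568). The mean of the pro-B and pre-B stage genes was highest in WT tumour 1, at 7.36, with the next WT tumour at 6.52 (0.559). That tumour also had the highest Vpreb1 of the WT group, at 11.30.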

How the results depend on the processing

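The differences of Igll1, Vpreb1, Vpreb2 and Vpreb3 stayed positive in each of 26 alternatives, and no adjusted p passed the threshold (0.448 to 0.965). With 1 tumour left out they ranged from 0.71 to 1.35 for Igll1, 0.60 to 1.38 for Vpreb1, 0.05 to 0.27 for Vpreb2 and 0.55 to 1.01 for Vpreb3. With the replicate block they were 1.06 for Igll1 (unadjusted p = 0.0897) and 0.84 for Vpreb3 (0.0231), and the block changed no call of these genes. The unadjusted p of Vpreb3 was above 0.05 in 6 of the 26, as given above. Without both WT tumour 3 and KO tumour 4, an alternative chosen after seeing the data, they were 0.88 and 0.68. The single gene past the threshold over all genes became 0 with the replicate block, with the pan-B covariate and without both of those tumours, and 0 to 1 with 1 tumour left out (0 without KO tumour 3, 5, 7 or 8 or WT tumour 3, 4, 5, 6, 7 or 9). The cause was not tested. At an unadjusted p below 0.05, limma's fits gave 695 genes higher and 752 lower with the block, 351 and 726 with the covariate and 428 and 777 without both tumours. The r of Igll1 with Vpreb1 held in each of 23 alternatives, left-out tumours (added after seeing the data) included. Other pairs lost their adjusted call in smaller sets of tumours. Within the 9 KO tumours r was 0.45 for Igll1 with Vpreb3, 0.65 for Vpreb1 with Vpreb2 and 0.59 for Vpreb1 with Vpreb3. Within the 9 WT tumours it was 0.38 for Igll1 with Vpreb2, 0.60 for Igll1 with Vpreb3, 0.59 for Vpreb1 with Vpreb2 and 0.70 for Vpreb1 with Vpreb3. Without the 2 tumours farthest from the median, it was 0.33 for Igll1 with Vpreb2, 0.53 for Igll1 with Vpreb3 and 0.33 for Vpreb1 with Vpreb3. With 1 tumour left out, Igll1 with Vpreb3 ranged from 0.43 to 0.58, Vpreb1 with Vpreb3 from 0.47 to 0.70, both lowest without WT tumour 8, and Vpreb2 with Vpreb3 from -0.070, reversed without WT tumour 8, to 0.36. Fewer tumours remain in each of these sets. Probe signal over background was not given in the file.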
